A study of Drosophila melanogaster with 16 samples.

Results

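Midguts of virgin female Drosophila melanogaster labelled Myc RNAi were compared with control midguts across all expressed genes. The comparison took the 8 female libraries of the 16 in the series, chosen by their titles, and 9314 of the 16680 listed genes passed the filter on low counts. The controls, of genotype w1118; mex1-GAL4 TS/+, gave 4 libraries numbered 1 to 4, and the genotype mex1TS > MycRNAi GD1419 gave 4 libraries numbered 9 to 12. Each library held the poly(A) RNA of 30 pooled midguts, so single animals cannot be told apart and every p-value below rests on how much such pools vary. The labels give the same mex1 driver to both genotypes and name no hairpin in the controls. They state neither the age of the flies nor the length of the RNAi. Libraries of virgin males of both genotypes, 4 each, entered the same fit and are used below to test where the female response differed from the male one.

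Myc is a transcription factor that binds DNA as a pair with Max and is known for driving genes of ribosome production and cell growth. Mnt pairs with Max as an antagonist of Myc, and Mondo pairs with the Max-like protein bigmax in the response to dietary sugar. mex1 is expressed in enterocytes, the absorptive cells of the midgut epithelium that secrete digestive enzymes. Enterocytes are renewed by intestinal stem cells through enteroblasts, and enteroendocrine cells release peptide hormones. Stressed or dying enterocytes are known to release ligands of the JAK-STAT and EGFR pathways, to which the stem cells respond by dividing.

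Total counts were 18986654 to 31752151 in the female controls and 16630050 to 53586401 in the Myc RNAi-labelled females. Reads were spread less evenly over genes in controls, where the top 50 genes took 26.9% to 36.2% of them, against 21.8% to 22.7% in the other group. Factors of the trimmed mean of M values (TMM), which correct library sizes for such differences in composition, were 0.691 to 1.01 in controls and 1.15 to 1.22 in the other group. Levels are given as counts per 1000000 reads (CPM) with these factors, not divided by gene length, and as mean ± SD over 4 libraries. Correlations of log2 CPM were 0.965 to 0.974 between controls, 0.972 to 0.982 between the Myc RNAi-labelled libraries and 0.915 to 0.957 across the groups. The first principal component, with 54.2% of the variance, separated the groups. Control 4 lay nearest to the other group on it, at −19.4 against −37.3 to −58.7 for the other 3 controls.

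The Myc transcript itself (listed as dm; chromosome X, 3373159 to 3391697, dm6) was examined first. It was at 126.5, 84.6, 60.5 and 84.9 CPM in controls 1 to 4 and at 83.6, 51.7, 56.9 and 43.7 CPM in libraries 9 to 12. The groups overlapped, with library 9 at the level of controls 2 and 4. The log2 fold change was −0.59 (SE 0.26) and did not pass the edgeR test (adjusted p = 0.0892). It passed without library 9 (−0.81, edgeR adjusted p = 0.0288), without control 3 (−0.74, edgeR adjusted p = 0.0411) or without the male library 16 (−0.59, edgeR adjusted p = 0.0486). A hairpin built from Myc sequence can itself yield reads that gene-level counts do not tell from the endogenous transcript. For these reasons the group is named by its label, Myc RNAi.

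Other genes taken as checks followed the labels. The eye colour gene w, which marks many fly transgenes (chromosome X, 2790599 to 2796466), was at 10.7, 12.4, 17.0 and 17.5 CPM in the controls and at 378, 305, 346 and 332 CPM in the Myc RNAi-labelled libraries. The groups lay far apart (log2 fold change 4.56 with SE 0.19, edgeR adjusted p = 1.89e-10). The male dosage compensation RNA roX1 lay near 0 in both female groups (0.865 ± 0.650 and 1.13 ± 0.636 CPM), and its means in the male groups were 720.4 and 718.9 CPM. The switch genes Sxl (log2 fold change −0.24, edgeR adjusted p = 0.229) and tra (0.06, edgeR adjusted p = 0.869) did not pass the test. The midgut label was also checked. Markers of enterocytes summed to 5184 to 6228 CPM in controls and 9782 to 10971 CPM in the Myc RNAi-labelled females. Ovary markers were near 0, at sums of 0.213 to 0.520 and 0.293 to 0.402 CPM, with Vm26Ab and bcd at 0 in all 8 libraries.

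Of the partners and relatives of Myc, those of the Mondo branch fell. Mondo (chromosome 2L, 21286078 to 21310050) was at 73.0, 93.9, 76.0 and 72.5 CPM in controls and at 37.5, 47.0, 31.1 and 41.5 CPM in the Myc RNAi-labelled females. The groups did not overlap (log2 fold change −1.01 with SE 0.17, edgeR adjusted p = 0.000233). sug, a transcription factor gene known as a target of Mondo, was at 102, 280, 61.9 and 63.3 CPM in controls and at 23.3, 29.8, 31.9 and 30.3 CPM in the other group. Every Myc RNAi-labelled library lay below every control, and control 2 was by far the highest (log2 fold change −2.14 with SE 0.44, edgeR adjusted p = 0.00113; −1.44 without control 2, edgeR adjusted p = 0.00278). bigmax (−0.50, SE 0.13) and the chromatin gene ash2 (−0.49, SE 0.12) fell too, and neither passed with libraries scaled to their total counts (−0.07 and −0.05). Max (−0.20, edgeR adjusted p = 0.529) and Mnt (0.50, edgeR adjusted p = 0.0647) did not pass, and Mnt passed without control 3 (0.62) or library 11 (0.68). Of 13 measured genes of this network 4 fell (30.8%, against 17.6% of all tested genes) and none rose, and the other 9, Myc among them, were not called. With total-count scaling 2 fell and 4 rose, and the median turned from −0.15 to 0.26.

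In all, 3362 genes changed, 36.1% of those tested, with 1727 higher (18.5%) and 1635 lower (17.6%). More than 2-fold changes were found for 749 higher (8.04%) and 681 lower genes (7.31%). The 4 libraries of 1 group lay wholly above the 4 of the other for 1815 genes in the higher direction (19.5%) and 1659 in the lower (17.8%). The median log2 fold change over all tested genes was −0.0002. With libraries scaled to total counts this median became 0.43, and 3488 genes were higher and 672 lower. Changes below are therefore relative to the bulk of genes.

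Genes with many reads fell more often than genes with few. Among the 191 genes with a mean of at least 1000 CPM over the 8 libraries, 124 (64.9%) were lower and 19 (9.95%) higher, with a median log2 fold change of −1.17. From 100 to 1000 CPM, 421 of 1367 were higher and 363 lower, and below 1 CPM 122 of 1168 were higher and 57 lower. The genes called lower held 51.1% to 63.9% of all CPM in controls and 25.9% to 30.6% in the Myc RNAi-labelled females. The genes called higher went from 8.18% to 13.2% up to 27.1% to 30.1%. By chromosome arm the shares lay closer together: on X, 15.1% of 1541 tested genes were higher and 18.1% lower, and on 2R, 21.2% of 1921 and 17.7%. The small chromosome 4 had lower shares, with 11.5% of its 78 tested genes higher and 6.41% lower.

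**Figure D1:**
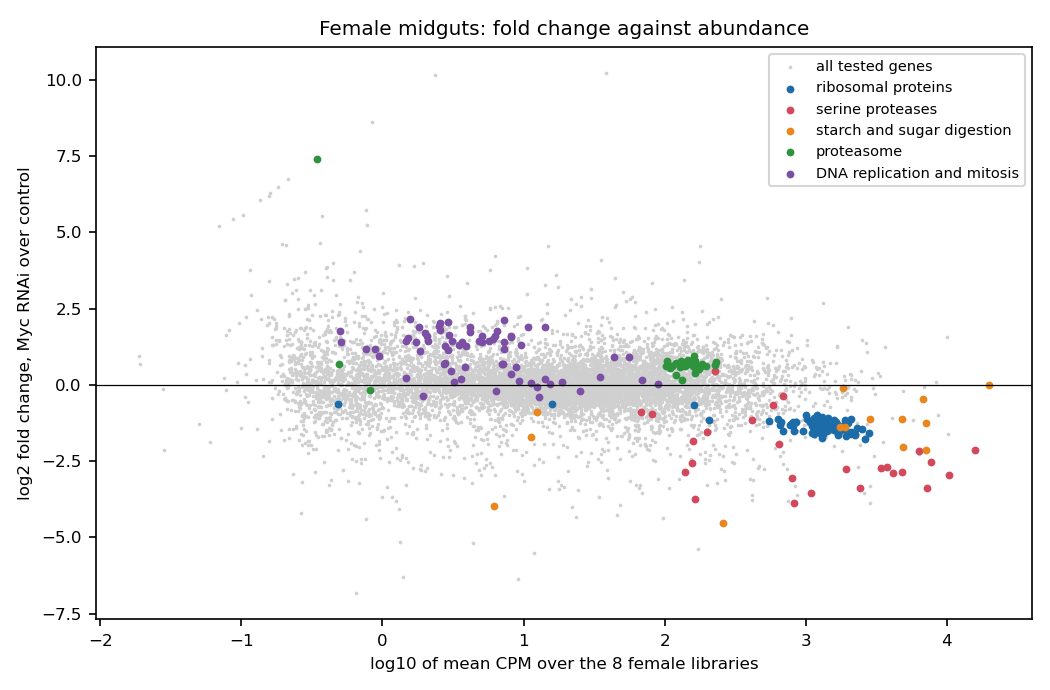
Log2 fold change (Myc RNAi over control) of every tested gene in females against the log10 of its mean CPM over the 8 female libraries. Grey points are all 9314 genes and coloured points are members of 5 gene lists: ribosomal proteins (median −1.33) and serine proteases (median −2.62) lie low at the abundant end, and proteasome genes (median 0.64) lie above 0.

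Digestive enzymes accounted for the largest losses of transcript. The 10 genes with the largest fall in mean CPM were the trypsins alphaTry and betaTry, the serine proteases Jon65Aiv, Jon25Biii, Jon65Aiii, yip7 and Jon99Ciii, the peptidase gene CG12374, the aspartyl protease Bace and the amylase Amy-p. These genes are short, with a median exon length of 988 bases, and together they held 8.73% to 16% of all CPM in controls and 2.60% to 3.56% in the Myc RNAi-labelled females. alphaTry (chromosome 2R, 11344260 to 11345119) was at 18044, 46565, 22564 and 16784 CPM in controls and at 5748, 5376, 4953 and 7409 CPM in the other group. Every control exceeded every Myc RNAi-labelled library (log2 fold change −2.15 with SE 0.31, edgeR adjusted p = 4.92e-05). Jon65Aiv was at 12613, 34822, 14860 and 10856 CPM in controls and at 1713, 1566, 3174 and 2905 CPM in the other group, again with no overlap (−2.97, SE 0.38, edgeR adjusted p = 2.03e-05). Of 26 measured digestive serine proteases 24 fell (92.3%, against 17.6% of all genes), with a median log2 fold change of −2.62. etaTry was the member that rose (0.45, SE 0.13), a call that ended without control 4 (0.34).

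Control 2 set the upper end of the protease values. The serine proteases summed to 97262, 218870, 112450 and 78664 CPM in controls 1 to 4, and to 18658, 17473, 24663 and 26352 CPM in libraries 9 to 12. The lowest control thus still held about 3 times the sum of the highest Myc RNAi-labelled library. The number of members that fell was 23 or 24 with any 1 female library left out. Control 2 was also the highest library for ribosomal proteins, lipases and Peritrophin-15a, and had the lowest TMM factor.

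Starch, sugar and glycoprotein digestion fell as well. Of 14 enzymes of starch and sugar digestion 11 fell (78.6%, against 17.6% of all genes), with a median of −1.31. The falls were led by the amylase-related gene Amyrel, from 495 ± 103.7 to 21.4 ± 9.45 CPM (log2 fold change −4.53 with SE 0.39), the amylase Amy-d (−2.03) and the maltase Mal-A7 (−1.13). Reads of the near-identical pair Amy-p and Amy-d may have been shared or dropped in counting. Of 10 lysosomal-type alpha-mannosidases and lysozymes 7 fell (70%), among them the mannosidase genes LManIII (−2.58), LManVI (−1.66), LManV (−1.51) and LManI (−1.16). LysX, a digestive lysozyme, went the other way, from 23.2 ± 13.7 to 251 ± 49.2 CPM (3.43, SE 0.40).

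Lipases and lipid uptake were mixed. Of 16 lipases 8 fell and 2 rose (50% and 12.5%, against 17.6% and 18.5% of all genes). Lip3 went from 86.8 ± 41.5 to 4.52 ± 0.798 CPM (log2 fold change −4.27 with SE 0.38), and the secreted lipase mag fell by 3.59 (2.99 without control 2), whereas Lip4 went from 6.08 ± 3.43 to 54.2 ± 10.4 CPM (3.16, SE 0.36). Among 13 CD36-type scavenger receptors, which take up lipids and carotenoids, 5 fell and 1 rose (38.5% and 7.69%). The riser was pes (0.56), a call that ended without control 2 or 4. ninaD fell furthest, from 334 ± 170 to 7.89 ± 7.13 CPM (−5.38, SE 0.78; −6.07 without library 11). Of 8 genes of the Niemann-Pick sterol protein family, Npc1a (0.92, SE 0.14) and Npc2a rose and 6 were not called. Npc2a was at 29.2, 39.6, 44.5 and 61.0 CPM in controls and at 190, 165, 223 and 171 CPM in the Myc RNAi-labelled females. The highest control stayed far below the lowest of the other group (2.10, SE 0.23, edgeR adjusted p = 4.12e-06).

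Within fat metabolism, genes of triglyceride synthesis fell and an elongase gene rose. The diacylglycerol acyltransferase genes mdy (−1.45) and Dgat2 (−2.94), the acyltransferase gene Agpat3 (−1.48) and the acyl-CoA ligase gene bgm (−1.53) fell. The elongase gene Baldspot rose from 219 ± 60.1 to 668 ± 31.8 CPM (1.61, SE 0.18), and the fatty acid synthase FASN1 rose by 1.09 with overlapping groups and lost its call without control 2 (0.93). Over the 27 lipid synthesis genes 9 fell and 4 rose (33.3% and 14.8%, against 17.6% and 18.5% of all genes). The count that rose was 2 without control 2. Over 20 genes of fatty acid oxidation 8 fell (40%) and 2 rose (10%). Both medians, −0.29 and −0.28, became positive with total-count scaling (0.16 and 0.19). whd, the carnitine palmitoyltransferase that brings fatty acids into mitochondria, fell from 762 ± 91.1 to 298 ± 74.4 CPM, and peroxisomal Acox57D-p from 421 ± 71.2 to 166 ± 35.8 CPM.

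Sugar handling changed at a few steps. Trehalase Treh, which splits the blood sugar trehalose, fell from 1255 ± 154 to 552 ± 62.2 CPM (−1.19, SE 0.15). The gluconeogenic enzyme gene fbp (−1.14), Pgm1 (−0.78) and Pgi (−0.84) also fell, while glycogen phosphorylase Glyp (0.44) and glycogen synthase Glys (0.56) rose. The calls of Glyp and Glys each ended without control 1, control 2 or library 9, that of Glyp also without library 10 and that of Glys without control 4. Of all 21 glycolysis and glucose storage genes 5 fell (23.8%) and 2 rose (9.52%), with a median of 0.0049 that lay at 0.44 with total-count scaling. Among amino acid transporters 4 of 20 rose and 4 fell (20% each, near the shares of all genes, and 8 and 2 with total-count scaling), the largest fall being acs (−1.97) and the largest rise among those named CG5535 (1.67). The count that fell was 2 without control 2, library 10 or library 12.

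Single genes of the gut lining changed in opposite directions. The peritrophic matrix is the sheet of chitin and protein between food and epithelium. Its component Peritrophin-15a was at 356, 854, 306 and 339 CPM in controls and at 72.8, 52.9, 87.3 and 47.3 CPM in the Myc RNAi-labelled females (log2 fold change −2.83 with SE 0.38, edgeR adjusted p = 2.81e-05), and the gut chitin synthase Chs2 fell by 1.06. The chitinase gene Cht4 was at 81.1, 45.8, 144 and 247 CPM in controls and at 969, 940, 932 and 905 CPM in the other group (2.85, SE 0.38, edgeR adjusted p = 2.93e-05). The groups of both genes lay apart in opposite directions. Cht9 (2.58), Cht2 (2.15) and the mucin gene Mur29B (1.42) rose as well. Over the list, 7 of 36 measured members rose (19.4%, close to the 18.5% of all genes that were higher). A further 2 fell (5.56%, below the 17.6% of all genes that were lower), and 27 were not called.

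Cytosolic ribosomal protein genes fell almost without exception. Of 82 measured, 79 fell (96.3%, against 17.6% of all genes) and none rose, with a median log2 fold change of −1.33 and a range of −1.77 to −0.61. RpL3 (chromosome 3R, 11221894 to 11225173) was at 3092, 4906, 2867 and 2785 CPM in controls and at 1037, 946, 1250 and 1134 CPM in the Myc RNAi-labelled females. Every control was above every library of the other group (−1.64, SE 0.21, edgeR adjusted p = 1.69e-05). The whole list summed to 123420 to 237890 CPM in controls and 49583 to 71120 CPM in the other group, a ratio of means of 2.59. The number that fell was 77 to 81 with any 1 female library left out and 75 with total-count scaling. The mitochondrial ribosomal proteins, encoded by other nuclear genes, gave another picture. Of 72 measured, 2 fell and 1 rose (2.78% and 1.39%), with a median of −0.10. Under total-count scaling the median was 0.36, with 28 members higher.

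Upstream of the ribosome, assembly factors fell. Of 52 genes of ribosome assembly and RNA polymerase I, 35 fell and 1 rose (67.3% and 1.92%, against 17.6% and 18.5% of all genes). The median was −0.63, and the list summed to 2866 to 3188 CPM in controls and 1315 to 1535 CPM in the Myc RNAi-labelled females. The GTPase gene Non1 fell from 1204 ± 72.5 to 347 ± 39.6 CPM (−1.797, SE 0.17), followed by nclb (−1.21), LTV1 (−1.13) and Noc3 (−0.99). Ns4, a nucleostemin-family GTPase, was the exception, at 0.96. With total-count scaling 11 of the 52 fell and 2 rose. Of 44 translation factors 22 fell and 2 rose (50% and 4.55%). Among those that fell were eEF2 (−1.09), eEF1alpha1, from 11440 ± 2020 to 5753 ± 807 CPM, and eIF2A (−1.12). The 2 that rose were eIF4EHP (1.51, SE 0.13), a cap-binding protein that represses translation, and eIF4G2 (1.27, SE 0.19). Total-count scaling left 8 lower and 6 higher, with a median of −0.03.

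Aminoacyl-tRNA synthetases, which charge tRNAs for translation, did not follow the ribosome. Of 20 cytosolic ones 6 rose and 2 fell (30% and 10%, against 18.5% and 17.6% of all genes). MetRS went from 39.5 ± 2.75 to 83.2 ± 6.36 CPM (1.08, SE 0.12) and ThrRS rose by 0.75. The count that rose was 3 without control 4 and 4 without control 2 or library 11, and 16 with total-count scaling. LysRS fell by 0.40, not called without library 10 (−0.34), and IleRS by 0.48. With total-count scaling they were at 0.05 and −0.05.

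The proteasome, which degrades ubiquitinated proteins, rose as a whole. Of 34 measured subunit genes 30 rose (88.2%, against 18.5% of all genes) and none fell, with a median of 0.64 and 1.07 with total-count scaling. Its ATPase subunit gene Rpt3 (chromosome X, 11125101 to 11126785) was at 116, 93.1, 120 and 111 CPM in controls and at 210, 192, 244 and 205 CPM in the Myc RNAi-labelled females. The 2 groups did not overlap (0.95, SE 0.12, edgeR adjusted p = 1.27e-05). Rpn3 (0.78), Rpt5 (0.74) and Prosalpha4 (0.65) had SEs of 0.10 to 0.11. The members not called were Rpt2 (0.15), Prosbeta1 (0.32) and the divergent copies Rpt3R (0.69) and Rpn13R (−0.17). Rpt6R, a further copy that was called, had 0 reads over the 4 controls and 117 over the other group. The count that rose was 25 to 31 with any 1 female library left out.

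Of 28 autophagy and lysosome genes 14 rose and 3 fell (50% and 10.7%, against 18.5% and 17.6% of all genes), with a median of 0.39. Besides Npc2a these were the autophagy genes Atg4b, from 26.3 ± 4.90 to 69.4 ± 7.95 CPM (1.40, SE 0.18), Atg18a (0.86) and Atg5 (0.72). The secretory pathway, by contrast, had 13 of 44 members lower (29.5%) and 2 higher (4.55%), with a median of −0.31. The members named are Herp, a gene of endoplasmic reticulum degradation (−1.12), Edem2 (−0.67) and Stt3A (−0.48) among the falls, and the stress kinase PEK (0.69) and ERp60 (0.49) among the rises. Without library 10, 7 members of it fell, and with total-count scaling 1 fell and the median was 0.13. In the respiratory chain and ATP synthase 7 of 68 fell (10.3%, a smaller share than the 17.6% of all genes) and none rose, the clearest being COX5A (−0.94, SE 0.15). That count moved to 2 without library 10 or 12, 3 without control 1 or 2, 4 without library 11 and 11 without control 4, and its median of −0.23 turned to 0.24 with total-count scaling.

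**Figure D2:**
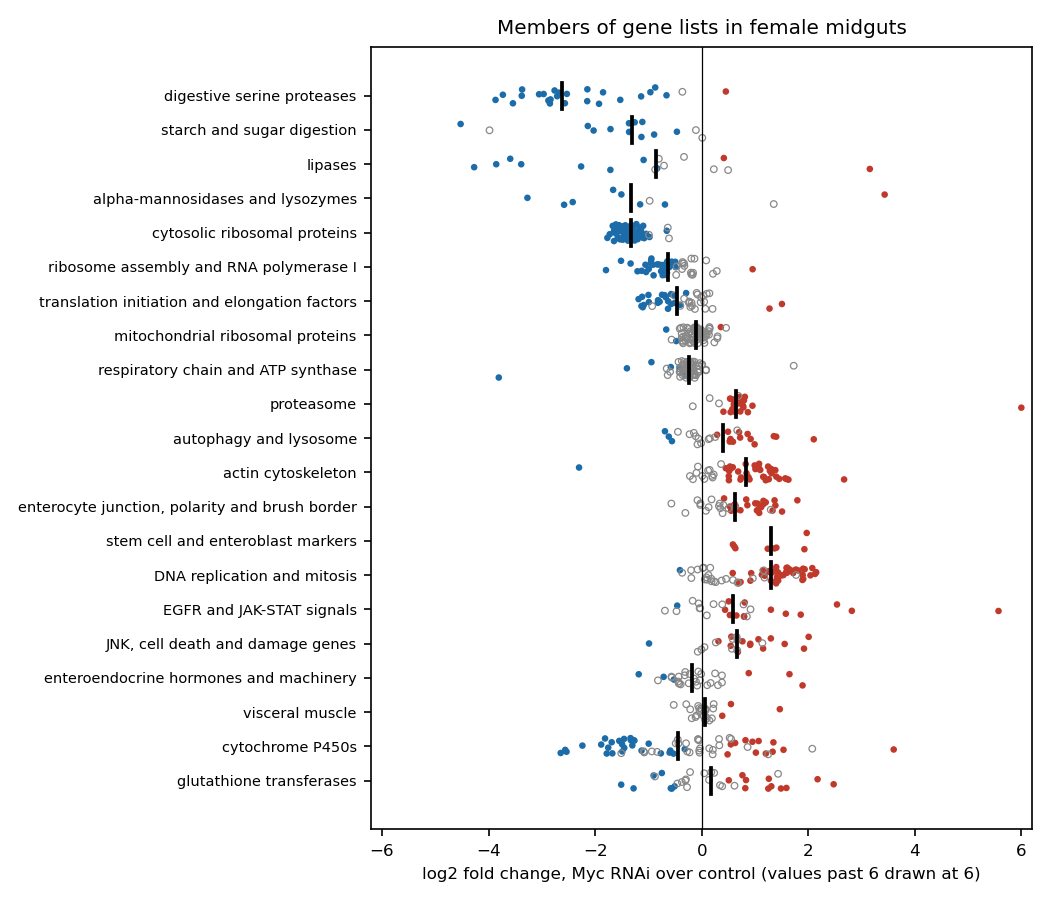
Log2 fold change (Myc RNAi over control) in females of each measured member of 21 gene lists, with values past 6 drawn at 6. Filled points passed the edgeR test (red higher, blue lower), open points did not, and black bars are list medians: ribosomal proteins (−1.33) and mitochondrial ribosomal proteins (−0.10) lie apart, and the actin list has its median at 0.83.

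Actin genes stood among the largest gains in mean CPM. Act5C, the main cytoplasmic actin (chromosome X, 5900861 to 5905399), was at 4409, 4859, 5535 and 5488 CPM in controls and at 14796, 15009, 14763 and 15589 CPM in the Myc RNAi-labelled females. The groups lay far apart with little spread in either (log2 fold change 1.57 with SE 0.13, edgeR adjusted p = 3.76e-07). The second cytoplasmic actin, Act42A (chromosome 2R, 6013910 to 6015689), was at 181, 275, 452 and 524 CPM in controls and at 2319, 2235, 2115 and 2467 CPM in the other group (2.67, SE 0.28, edgeR adjusted p = 3.14e-06). Controls 3 and 4 had the higher control levels, and still lay far below any Myc RNAi-labelled library. Actin genes are close in sequence, so reads could have been shared among them.

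A list of actin cytoskeleton genes was drawn up after these 2 genes had been seen. Of its 50 measured members 37 rose and 1 fell (74% and 2%, against 18.5% and 17.6% of all genes, median 0.83). It covered the branching complex (Arpc1, from 214 ± 22.1 to 564 ± 30.6 CPM, 1.40), filament capping (cpb, 1.28), nonmuscle myosin (its light chain sqh, from 219 ± 24.5 to 602 ± 49.6 CPM, 1.46, and its heavy chain zip, 1.63) and the GTPases Rho1 (1.15) and Rac2 (1.20). The muscle-type actin Act79B was the member that fell, from 16.2 ± 6.91 to 3.30 ± 0.732 CPM (−2.30, SE 0.34). Visceral muscle, the coat of the gut, did not move with these genes. Of its 25 measured markers 3 rose (12%) and none fell, with a median of 0.06. Those that rose were Zasp52 (1.47), Tm1 (0.55) and Strn-Mlck (0.39). The call of Strn-Mlck ended without control 1, 2 or 4 or library 10, 11 or 12. Summed, the muscle list was at 3334 to 3788 CPM in controls and 3450 to 4218 CPM in the other group. Besides Act5C and Act42A, the 10 largest gains in mean CPM were those of the junction gene mesh, Arc1, Fst and 5 genes known by a number, of which CG5399 went from 2134 ± 694 to 5115 ± 1023 CPM.

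Cell junction and adhesion genes rose beside actin. Of 39 genes of enterocyte junctions, polarity and brush border 23 rose (59.0%, against 18.5% of all genes) and none fell, with a median of 0.63. Genes of the smooth septate junction, the seal between gut epithelial cells, rose: Ssk from 529 ± 55.1 to 1217 ± 68.9 CPM (1.20), Tsp2A (1.16), mesh from 1487 ± 282 to 3837 ± 396 CPM (1.37) and hoka (1.33). The adhesion gene Fas3 was at 42.8, 33.3, 42.5 and 58.4 CPM in controls and at 148, 157, 142 and 168 CPM in the Myc RNAi-labelled females, with no overlap (1.796, SE 0.18, edgeR adjusted p = 2.06e-06). The integrin gene mys (1.38) and the laminin gene LanA (1.51), which join cells to the basement membrane, rose too. Of 9 enterocyte markers 5 rose: the 4 junction genes and mex1 (1.12, SE 0.22), the gene whose promoter gives the driver its name. The enterocyte regulators nub (0.35) and GATAe (0.03) and the brush border myosins Myo31DF (0.08) and Myo61F (0.18) were not called.

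Several markers of stem cells and enteroblasts were higher. The list was reduced to 8 markers after values had been seen, so its count is a description only: all 8 were called (median 1.30), Sox21a, Sox100B (1.93), Delta (1.37), N (1.24), spdo (1.40), esg (0.61), klu (0.63) and zfh2 (0.59). Sox21a, a progenitor transcription factor (chromosome 3L, 14103481 to 14108118), was at 5.48, 9.16, 13.3 and 29.7 CPM in controls and at 65.6, 69.5, 36.5 and 54.5 CPM in the Myc RNAi-labelled females. The groups did not overlap, although control 4 came close to library 11 (1.97, SE 0.38, edgeR adjusted p = 0.000688). Summed, the 8 markers lay at 56.9, 59.0, 71.4 and 124 CPM in controls and at 214, 215, 157 and 189 CPM in the other group. The calls of esg, klu and zfh2 were the fragile ones: 5 of the 8 passed without control 1, control 2, library 9 or library 10, and esg and zfh2 overlapped between groups. On a wider list of 24 measured progenitor genes 17 rose and 1 fell (70.8% and 4.17%, against 18.5% and 17.6% of all genes). The count that rose was 12 without control 2. In RNA of whole midguts, more cells of a type and more transcript per cell cannot be told apart.

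Genes of DNA replication and mitosis, which dividing cells need, rose with them. Of 68 measured 43 rose and 1 fell (63.2% and 1.47%, against 18.5% and 17.6% of all genes), with a median of 1.29. The replicative helicase gene Mcm7 was at 1.44, 2.23, 1.95 and 5.30 CPM in controls and at 13.6, 10.96, 10.7 and 12.4 CPM in the Myc RNAi-labelled females. Control 4 was the highest control, yet below every library of the other group (2.13, SE 0.29, edgeR adjusted p = 3.01e-05). Nucleotide reduction (RnrL, 1.91), ligation (DNAlig1, 1.61) and chromosome segregation (aurB, from 2.96 ± 0.534 to 10.1 ± 1.39 CPM, 1.77) were all higher. CycD fell by 0.41, turned to 0.02 with total-count scaling, and was not called without control 1, control 3 or any of libraries 10 to 12. The count that rose was 42 to 47 with any 1 female library left out.

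Some genes of signals that act on stem cells were higher, ligands and feedback genes among them. The growth factor gene Pvf1 (chromosome X, 18832682 to 18842901) was at 39.5, 38.4, 72.4 and 97.8 CPM in controls and at 423, 478, 384 and 465 CPM in the Myc RNAi-labelled females. Every library of that group lay above every control (log2 fold change 2.82 with SE 0.26, edgeR adjusted p = 1.03e-06). The EGFR ligand Krn (0.65), the ligand-cleaving protease rho, from 2.06 ± 1.42 to 11.9 ± 2.14 CPM (2.54), the receptor Egfr (0.79) and the pathway gene edl (1.58) rose. Of 26 measured genes of the EGFR, JAK-STAT and Pvf pathways 13 rose (50%, against 18.5% of all genes) and 1, the kinase gene hop (−0.46), fell. The call of hop ended without control 1, library 11 or library 12, and 9 members rose without control 1.

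The JAK-STAT ligand gene upd3 stood out for 1 control. It was at 1.86, 2.23, 3.07 and 18.5 CPM in controls 1 to 4 and at 24.2, 26.8, 14.1 and 27.5 CPM in libraries 9 to 12. Control 4 lay above library 11, so the groups overlapped (1.86, SE 0.59, edgeR adjusted p = 0.0213). The same library was the highest control for the feedback gene Socs36E, at 38.4, 30.1, 50.3 and 149 CPM in controls against 152, 223, 112 and 172 CPM in the other group (1.30, SE 0.44, edgeR adjusted p = 0.0297). Without control 4 the log2 fold changes were 3.20 for upd3 (edgeR adjusted p = 3.71e-05) and 1.9985 for Socs36E (edgeR adjusted p = 0.000436). Without control 1, 2 or 3 neither passed (edgeR adjusted p = 0.061 to 0.0678 for upd3 and 0.0786 to 0.0953 for Socs36E). Socs36E also did not pass without library 10 (edgeR adjusted p = 0.0861) or 12 (edgeR adjusted p = 0.058). What set control 4 apart was not tested.

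Notch, JNK and cell death genes showed further gains. Of 13 genes of the Notch pathway, which sets the fate of enteroblasts, 8 rose (61.5%, against 18.5% of all genes) and none fell, led by fng (1.98), a sugar transferase that tunes the receptor, and the target gene E(spl)m3-HLH (1.48). Of 24 genes of JNK signalling, damage and cell death 13 rose (54.2%) and 1 fell (4.17%), with a median of 0.67. The receptor gene grnd (2.01, SE 0.26) and its ligand egr (1.07, SE 0.14) rose together with puc (1.30), the phosphatase that JNK induces, the caspase gene Drice (1.15) and the caspase inhibitor Diap1 (0.91). The matrix metalloprotease gene Mmp1 was at 127, 120, 181 and 204 CPM in controls and at 433, 508, 401 and 517 CPM in the Myc RNAi-labelled females, with no overlap (1.56, SE 0.24, edgeR adjusted p = 9.56e-05). Mmp2 rose by 1.92. The kinase gene Ask1 fell by 0.99. With total-count scaling 20 of the 24 were higher.

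**Figure D3:**
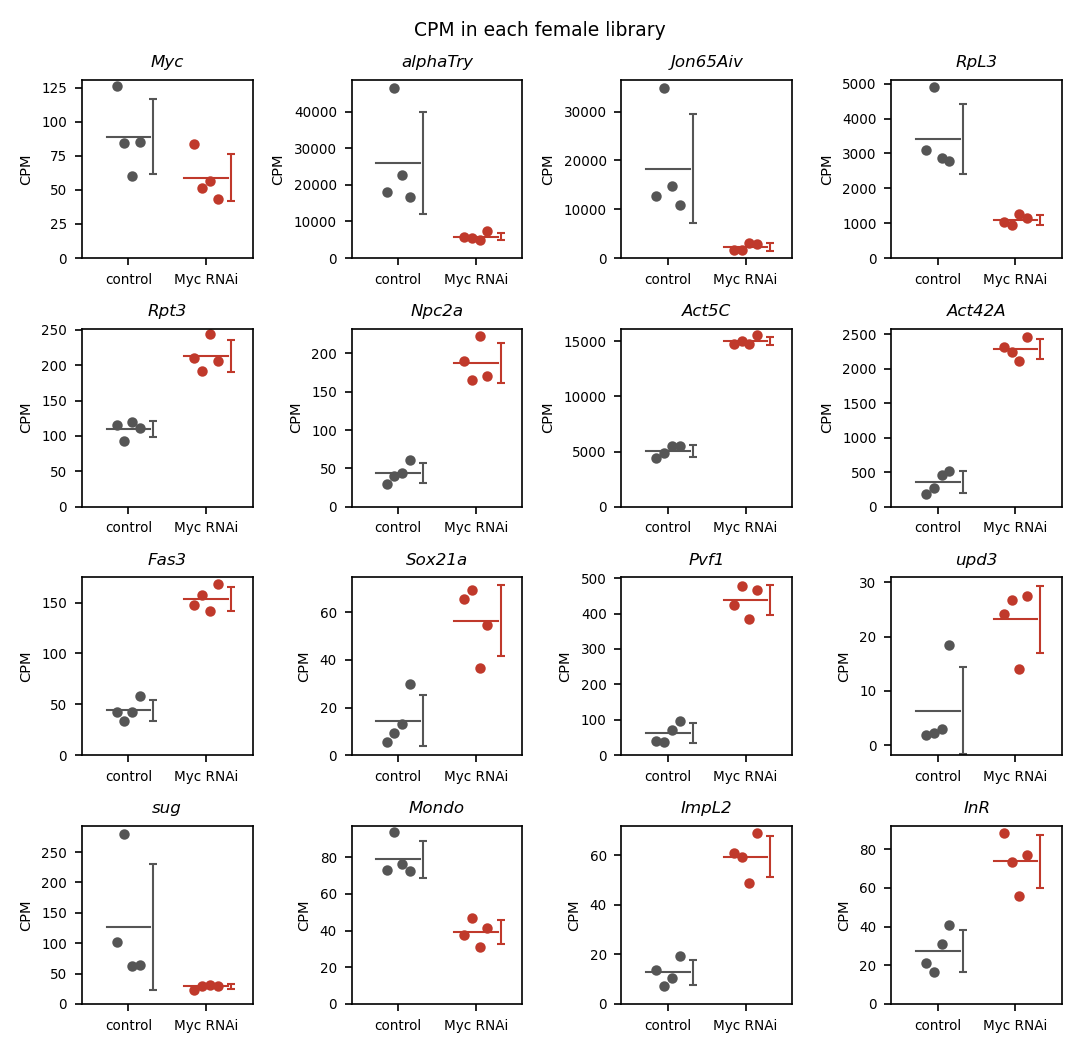
CPM of 16 genes in each of the 4 control (grey) and 4 Myc RNAi (red) female libraries, on linear axes. Points are libraries in the order of their numbers, lines are means and bars beside them are SD: controls 1 to 3 have upd3 at up to 3.07 CPM and control 4 at 18.5 CPM, while Act5C reaches 5535 CPM in controls and starts at 14763 CPM in the other group.

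Of 30 enteroendocrine hormone and secretion genes 3 rose and 3 fell (10% each, below the shares of all genes), with a median of −0.19 that was 0.26 with total-count scaling, and their summed level was 857 to 982 CPM in controls and 824 to 878 CPM in the Myc RNAi-labelled females. The hormone gene CCHa2 was at 188, 140, 207 and 188 CPM in controls and at 85.9, 87.2, 69.5 and 76.5 CPM in the other group, with no overlap (−1.18, SE 0.21, edgeR adjusted p = 0.000358). The hormone-processing protease amon fell by 0.71, the ion transport peptide gene ITP rose from 10.6 ± 3.46 to 33.2 ± 4.14 CPM (1.65), and the fate gene sc rose from 0.536 ± 0.226 to 2.02 ± 0.551 CPM (1.89). The copper and iron cell markers lab, Ptx1, Fer1HCH and Fer2LCH were not called. Transcription factors of midgut regions had 6 of 45 members higher (13.3%) and 5 lower (11.1%, 3 members without library 11), such as Sox14 (1.17), apt (0.92), bab2 (−1.18) and bowl (−1.03).

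Insulin pathway genes were called higher and lower in equal number, 7 each of 31 (22.6%), near the 18.5% and 17.6% of all genes. The receptor gene InR was at 21.2, 16.6, 31.1 and 41.1 CPM in controls and at 88.5, 73.4, 55.7 and 77.2 CPM in the Myc RNAi-labelled females, with no overlap (1.42, SE 0.25, edgeR adjusted p = 0.00032). ImpL2, whose product is secreted and binds insulin-like peptides, was at 13.8, 7.25, 10.5 and 19.2 CPM in controls and at 61.0, 59.2, 48.9 and 68.8 CPM in the other group (2.23, SE 0.25, edgeR adjusted p = 5.85e-06). Every Myc RNAi-labelled library lay above every control for both. The kinase gene Akt (0.72) and RagA-B (0.93), which activates TOR, also rose, whereas foxo, the transcription factor that insulin restrains, fell from 123 ± 16.9 to 58.6 ± 10.5 CPM (−1.07, SE 0.16) and Sesn, an inhibitor of TOR, by 0.98. The list median of −0.11 became 0.32 with total-count scaling. In hormone breakdown, the juvenile hormone hydrolases Jheh1 (−1.30), Jheh2 (−0.91) and Jheh3 (−1.32) fell. Reads of these neighbouring genes may be shared. Of 26 measured ecdysone and juvenile hormone response genes 5 rose and 6 fell (19.2% and 23.1%, near the 18.5% and 17.6% of all genes). The median of that list turned from −0.20 to 0.22 with total-count scaling.

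Detoxification genes changed in both directions. Of 66 cytochrome P450 genes, which oxidise foreign compounds and lipids, 27 fell and 12 rose (40.9% and 18.2%, against 17.6% and 18.5% of all genes). Cyp6g1, known for insecticide resistance (chromosome 2R, 12185667 to 12188431), was at 912, 726, 722 and 867 CPM in controls and at 131, 132, 148 and 103.7 CPM in the Myc RNAi-labelled females (−2.65, SE 0.17, edgeR adjusted p = 4.61e-08). Cyp12e1 went the other way, from 2.59 ± 0.204 to 31.5 ± 2.82 CPM (3.60, SE 0.12), and Cyp4p1 rose by 1.35. The groups did not overlap for either Cyp6g1 or Cyp12e1. Of 28 UDP-glycosyltransferases 14 (50%) fell, such as Ugt37B1, from 127 ± 7.02 to 10.98 ± 0.579 CPM (−3.53), and 4 (14.3%) rose, such as Ugt301D1 (2.72). With total-count scaling the medians of the P450 and UDP-glycosyltransferase lists, −0.44 and −0.46, were both −0.01, with 20 and 6 members lower.

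Among glutathione transferases 11 of 33 rose and 7 fell (33.3% and 21.2%, against 18.5% and 17.6% of all genes). The share that fell was thus near that of all genes, and the difference between the families was not tested. GstD9 was at 25.5, 25.2, 21.2 and 31.9 CPM in controls and at 161, 134, 128 and 155 CPM in the Myc RNAi-labelled females, with no overlap (2.48, SE 0.21, edgeR adjusted p = 5.16e-07). Its neighbours GstD8 (2.18) and GstD5 (1.49) and the omega-class gene GstO3 (1.59) rose, and GstT4 (−1.51) and GstD10 (−1.28) fell. Members of this cluster are similar in sequence, so reads may be shared. Antioxidant genes fell in 7 of 22 cases (31.8%) and rose in 2 (9.09%), with a median of −0.31 that became 0.15 with total-count scaling. Catalase, Cat, which breaks down hydrogen peroxide, fell from 905 ± 132 to 398 ± 25.03 CPM (−1.19, SE 0.16), and the peroxiredoxin gene Prx2 by 0.88.

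Of the small heat shock genes, 3 rose with a wide spread between libraries and l(2)efl fell from 75.7 ± 22.3 to 43.2 ± 3.94 CPM (−0.81). Hsp23 went from 14.7 ± 8.66 to 149 ± 82.8 CPM (3.35, SE 0.76), Hsp26 from 13.99 ± 7.18 to 64.2 ± 32.2 CPM (2.20, SE 0.65) and Hsp27 from 4.70 ± 1.64 to 14.5 ± 4.93 CPM (1.62, SE 0.41). Over all 21 chaperone genes 6 rose and 3 fell (28.6% and 14.3%), with a median of −0.07 that was 0.35 with total-count scaling. Hsp70Bb, whose reads are uncertain, was among the 6. Of immune genes, the amidase genes PGRP-SC1a (−3.92, SE 0.50) and PGRP-SC1b (−3.42, SE 0.39), which break down bacterial peptidoglycan, fell, and PGRP-LA (1.45) and Dredd (0.78) rose. Over 28 genes of peptidoglycan recognition and the IMD pathway 7 rose and 6 fell (25% and 21.4%, near the 18.5% and 17.6% of all genes), and the median turned from −0.11 to 0.29 with total-count scaling. Of 13 antimicrobial peptide genes 1, Drsl3, rose (1.27; the call ended without library 11), and the summed level overlapped widely, at 19.8 to 93.3 and 38.7 to 193 CPM.

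Markers of tissues that can cling to a dissected gut were measured for comparison. Fat body markers summed to 94.2 to 276 CPM in controls and 49.8 to 160 CPM in the Myc RNAi-labelled females, Malpighian tubule markers to 42.2 to 64.4 and 25.1 to 75.1 CPM, trachea to 17.1 to 20.8 and 19.4 to 20.9 CPM, and haemocytes to 1.32 to 9.18 and 1.1046 to 8.31 CPM. The ranges overlapped in each case. Of the 29 measured markers of trachea, haemocytes, fat body, tubule, testis, neurons, hindgut and the salivary gland or proventriculus, 3 were called higher, btl (0.89), elav (0.66) and fkh (0.74), and 2 lower, Irk2 (−0.78) and the larval storage protein Lsp2 (−6.35, and −2.20 without control 3, where it was not called). The calls of elav, fkh and Irk2 each ended without control 2, at 0.52, 0.66 and −0.67. The part of such tissue in the results above was not tested.

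**Figure D4:**
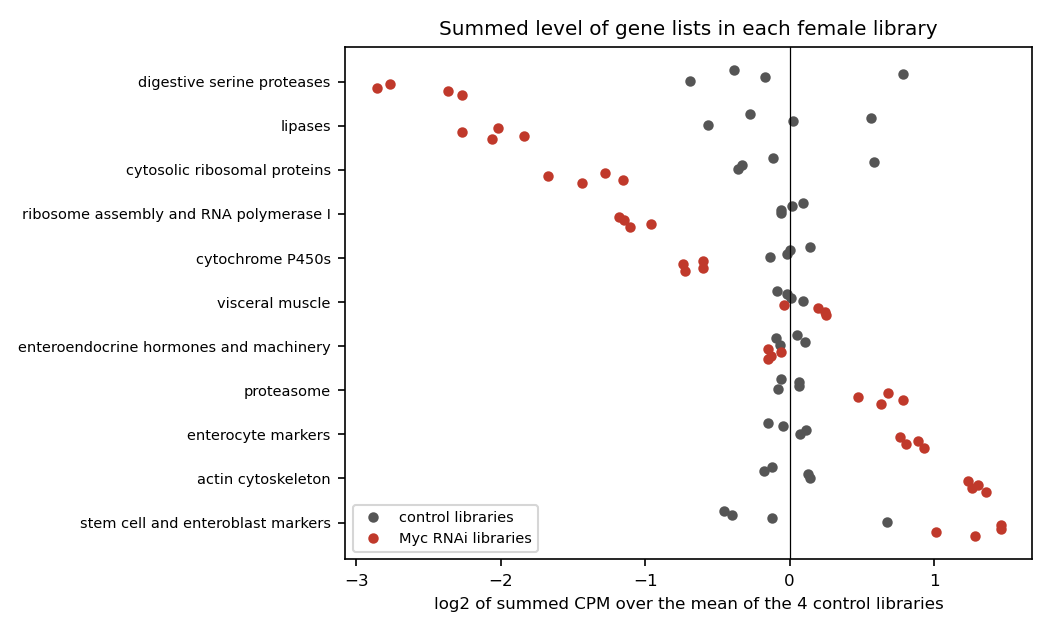
Summed CPM of 11 gene lists in each female library, as log2 of the ratio to the mean of the 4 controls. Each point is 1 library (grey control, red Myc RNAi): visceral muscle (3334 to 3788 and 3450 to 4218 CPM) and enteroendocrine genes overlap between groups, serine proteases and ribosomal proteins lie lower in the Myc RNAi libraries, and actin and stem cell lists higher.

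Few genes switched between near absence and clear presence. The bounds were at most 1 CPM in all libraries of 1 group and at least 5 CPM in all of the other. By these, reads of Hsp70Bb and CG13318 appeared in the Myc RNAi-labelled females, and those of CG31741 were lost. Hsp70Bb had 5 reads over the 4 controls and 10759 over the other group, at 76.6 ± 27.4 CPM. Its mean was 0.039 CPM in male controls and 67.95 CPM in Myc RNAi-labelled males. It is 1 of several near-identical heat shock genes, so its reads are uncertain. Whether they came from the endogenous gene was not tested. CG13318 had 54 and 1636 reads (4.22, SE 0.34), and CG31741 had 716 and 40 reads (−5.18, SE 0.59; −6.58 without library 11).

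For most genes the female response did not differ detectably from the male one: the test of the female-minus-male difference in log2 fold change called 100 of 9314 genes (1.07%). The difference was called for 16 of the 278 genes for which values were collected by name. In 14 of the 16 the loss was smaller in females. Bace (chromosome 2L, 8494893 to 8496307) was at 12097, 26006, 13751 and 10105 CPM in female controls and at 5131, 5041, 4725 and 5292 CPM in Myc RNAi-labelled females (−1.62, SE 0.36). In males the log2 fold change was −5.07, a difference of 3.45 (edgeR adjusted p = 0.00377). The groups did not overlap in females, and the Myc RNAi-labelled libraries kept a nearly constant level.

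The alpha-mannosidase genes differed alike. The female-minus-male difference was 3.16 for LManIII (edgeR adjusted p = 0.00297), 2.67 for LManV (edgeR adjusted p = 0.00106), 2.61 for LManVI (edgeR adjusted p = 0.00106), 1.66 for LManI (edgeR adjusted p = 0.00251) and 1.31 for LManII (edgeR adjusted p = 0.0109). LManIII, LManV and LManVI lie within 8765273 to 8781252 of chromosome 2L and LManI and LManII within 10452677 to 10462472. Reads of such related genes may be shared, so the 5 values may not be independent. The UDP-glycosyltransferase gene Ugt35C1 (1.58, edgeR adjusted p = 0.00779), the sugar transporter gene CG1208 (1.32, edgeR adjusted p = 0.00377), Cyp6g1 (1.22, edgeR adjusted p = 0.0192) and Mal-A7 (0.98, edgeR adjusted p = 0.0192) had the same sign. Both exceptions fell further in females. The lipase-type gene CG6296 went from 121 ± 33.6 to 11.4 ± 5.48 CPM in females (−3.39) against a log2 fold change of −0.02 in males (difference −3.36, edgeR adjusted p = 0.00377). The ribosome assembly gene Noc3 changed by −0.99 in females and −0.21 in males (difference −0.78, edgeR adjusted p = 0.0192). Of the 52 measured ribosome assembly genes 9 had a called difference, against 100 of all 9314 tested genes (1.07%).

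No ribosomal protein, proteasome, actin, serine protease, stem cell, replication or junction gene on the lists had a called difference. An uncalled difference does not show equal effects. RpL5, RpL3, RpL8 and RpL36A, picked by lowest p in females, had log2 fold changes of −1.77, −1.64, −1.65 and −1.21 there. In males these were −1.155, −1.05, −0.83 and −0.55. For Myc itself the difference was −1.24 (edgeR adjusted p = 0.156). That exceeds the size of the female fall, so the estimated change of the Myc count in males was a rise. The count of 100 depended on the male libraries too: male library 16 had 13845 genes detected, against 11041 to 11284 in the other 3 Myc RNAi-labelled males, and without it 131 genes were called. Leaving out single female libraries moved it between 46 and 122, with 52, 61 and 46 calls without libraries 9, 11 and 12 and 62 without control 1.

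**Figure D5:**
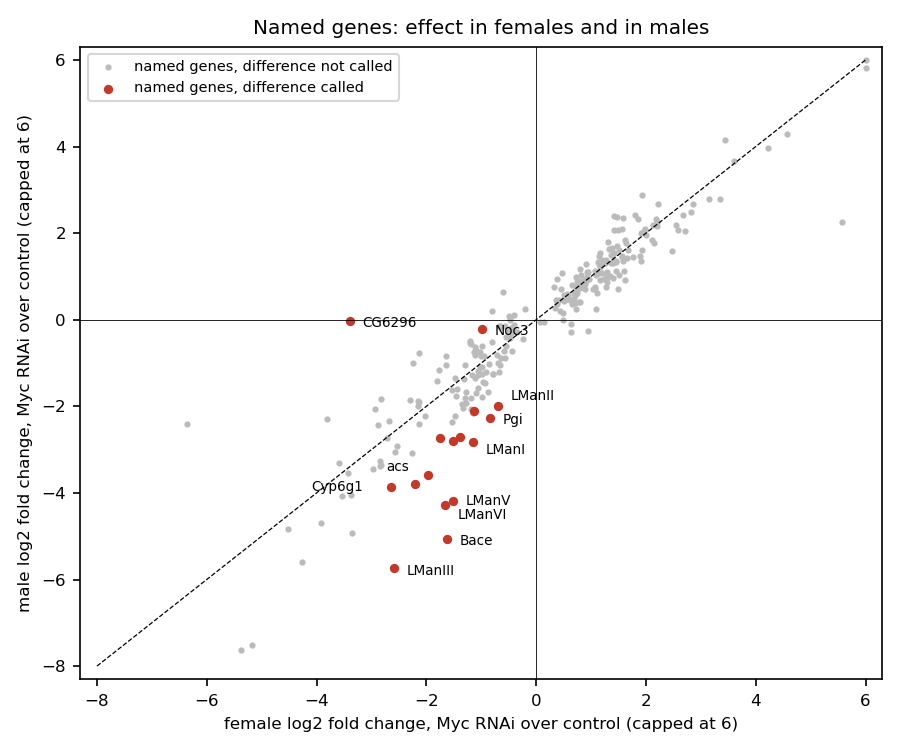
Log2 fold change (Myc RNAi over control) in males against that in females for the 278 genes collected by name, capped at 6. Red points have a called female-minus-male difference, grey points do not, and the dashed line marks equal effects: Bace (−1.62 in females, −5.07 in males) lies below the line and CG6296 (−3.39 and −0.02) above it.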

How the data were processed

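RNA sequencing reads of 16 midgut libraries had been turned by the authors into 1 table of whole-number counts per gene and library, as deposited. Per the submitters' processing notes, TopHat2 2.0.11 and featureCounts were used with the dm6 build; its counting settings and annotation were not given in the sources used here. Listed symbols were matched to the supplied annotation, by symbol for 12504 and by synonym for 4069 of 16680 genes.

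From the counts, edgeR 4.0.16 (R 4.3.3) computed TMM factors and a quasi-likelihood F test on the genes kept by its filter by group, with 1 mean per group over all 16 libraries and no covariate. The female contrast and the female-minus-male difference were tested with Benjamini-Hochberg adjustment over 9314 genes, and a gene is called changed at an adjusted p under 0.05. The SE is the log2 fold change divided by the root of F. A fold change against a group at 0 reads depends on edgeR's prior count and is no bound. The fit was also run on simulated data in which few genes changed, as many up as down. A shift in composition like that between the real groups was not simulated, so that run cannot show how well it was corrected. Alternatives used other normalizations and filters, DESeq2 1.42.0, limma 3.58.1 with voom, the 8 female libraries alone, and single libraries left out. Total counts of 16630050 to 53586401 set the counting precision, and replicates differed by more than counting noise.

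Genes were named by rule: the 10 largest losses and gains in mean CPM among changed genes with groups that do not overlap, up to 4 changed members of each list in its main direction and 2 in the other by lowest p, Myc and its partners with the check genes, and genes near absent (at most 1 CPM) in 1 group and at 5 CPM or more in the other. Named outside this rule, after their values were seen, were upd3, Socs36E, edl, Krn, Egfr, puc, Mmp2, Drice, mex1, esg, klu, spdo, zfh2, zip, Rho1, Rac2, LanA, mys, Rpt6R, elav, btl, fkh, Lsp2, Irk2 and the uncalled members given as values. The genes given library by library were also chosen so.

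The comparison and the gene lists were chosen with earlier results of these data known. Some lists were edited after values were seen: the actin list was added and its called entry spag removed, the stem cell list was reduced to 8 markers, and Cdc42, eEF1gamma, cpb and mor were taken out of lists on Myc partners, glutathione transferases, muscle and DNA replication. A planned count of promoter motifs was not run, since no promoter sequences were used here. For 1 gene that the rule names, results are not reported here.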

Additional observations from a re-analysis of the deposited data

Results flagged for a closer look

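A single library far from the other 3 of its group was looked for in 58 groups of values, of which chance marks about 1 in 20, and 7 were found. Control 2 was the far library for Jon65Aiv (34822 CPM), RpL3 (4906 CPM), Mondo (93.9 CPM) and Peritrophin-15a (854 CPM). Control 4 was the far library for upd3 (18.5 CPM) and Socs36E (149 CPM). Library 12 had the highest share of reads in the top 50 genes of its group, at 22.73%.

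The response of 16 of the 278 named genes differed between females and males by the edgeR test of the difference itself. The female log2 fold change exceeded the male one by 3.45 for Bace, 3.16 for LManIII, 2.67 for LManV, 2.61 for LManVI, 1.66 for LManI and 1.31 for LManII. It exceeded the male one by 1.62 for acs, 1.58 for Ugt35C1, 1.42 for Pgi, 1.32 for CG1208, 1.29 for GstT4, 1.22 for Cyp6g1, 0.98 for Mal-A7 and 0.98 for Cyp4ac1. The difference was −3.36 for CG6296 and −0.78 for Noc3. With total-count scaling the calls of Cyp4ac1, Cyp6g1 and Noc3 ended, and with no filter on low counts those of GstT4, Mal-A7, Pgi and acs.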

How the results depend on the processing

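Scaling to total counts gave 3488 genes higher and 672 lower in females, and turned LysRS (0.052), SdhA (0.088), ATPsynbeta (0.041), path (0.014) and CycD (0.024) positive; these 5 were called lower with TMM. The cause was not tested. Under the 7 other settings that kept all 8 female libraries (DESeq2, limma voom and the RLE factors among them), the counts of genes higher and lower stayed within 1.5 times. Single female libraries left out gave 1453 to 1670 genes higher and 1389 to 1807 lower, and leaving out male library 16 gave 1901 and 1824. The count of genes with a female-minus-male difference was 57 with total-count scaling, 59 with no filter on low counts and 243 with DESeq2. It was 46 to 122 with single female libraries left out and 131 without male library 16. Of the 270 named genes that were called, 236 kept their call with total-count scaling, 256 with no filter, and 247 to 260 with 1 female library left out. No paired analysis was possible because the labels number the replicates 1 to 16 with no number shared between groups. Low counts limit the precision of rare transcripts such as Mcm7 and sc.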
